A study of Mus musculus with 6 samples.

Results

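The translation initiation and elongation factors of C2C12 myoblasts were compared between unstretched cells and cells stretched for 4 h. The members are every gene of the deposited table whose symbol begins with Eif1 to Eif6 or with Eef1 or Eef2, apart from the eIF2 kinases and Eef1e1. The release factors Etf1, Gspt1 and Gspt2, the recycling factor Abce1, the poly(A)-binding proteins Pabpc1 and Pabpc4 with their partners Paip1 and Paip2, and Tpt1 were added by name. The rule used no measured value and found 91 of the 22375 genes of the table. Of these, 68 averaged 0.5 FPKM or more over all 6 libraries and were tested, among 11593 genes tested in all. FPKM scales the fragments of a gene by its length and by the size of the library, so a value is a level per length and relative to the rest of that library.

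C2C12 is an established mouse myoblast line. The study stretched it as a cell model of the mechanical load on the diaphragm during ventilation. Poly(A)-selected RNA was sequenced from 3 control libraries without stretch (the CON group) and from 3 libraries of cells under cyclic stretch at 15% elongation for 4 h (the 4H group). No other treatment or genetic change is named for these cells. The 4H libraries carry the titles 4H1, 4H3 and 4H4 and are called 4H replicates 1, 2 and 3 here, by the biosample numbers in their descriptions. The labels call the libraries replicate biosamples and do not say that they came from separate cultures, so the p-values measure the spread between these libraries. In these bulk libraries, fewer cells of a type and less RNA per cell cannot be told apart.

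Protein synthesis begins when eIF2, a GTP-binding factor of 3 subunits, brings the initiator tRNA to the small ribosomal subunit. The exchange factor eIF2B recharges eIF2, the large complex eIF3 holds the pieces together, and the eIF4 factors load the mRNA by its cap. Elongation factors then deliver each aminoacyl-tRNA and move the ribosome along the mRNA. The mRNAs of many of these proteins are themselves regulated in growing cells, in part through a run of pyrimidines at the start of the transcript.

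The levels of the translation factors were mostly lower in the 4H group. Of the 68 members tested, 37 were called lower (54.4%, against 24.1% of all genes tested) and 3 higher (4.41%, against 22.6%), so that 58.8% were called in either direction against 46.7% of all genes. With no filter 18 of 87 members were called higher, against 2967 of 16576 genes, and after rescaling to TPM 14 of 77, against 3140 of 12457. In both settings most of these members were Eif1ad copies. With quantile normalization it was 6 of 68 members, against 2558 of 11597 genes. Without CON replicates 1, 2 and 3 it was 8, 6 and 7 of 71 members, against 2324 of 11606, 2406 of 11619 and 2342 of 11609 genes. A call is an adjusted p of at most 0.05 by limma on log2(FPKM + 0.5) with Benjamini-Hochberg adjustment over all genes tested. All 3 4H libraries lay below all 3 CON libraries in 54.4% of the members, against 29.2% of all genes, and above them in 8.82%, against 27.5%. The median log2 fold change, 4H minus CON, was -0.14 over the members and -0.01 over all genes tested. The falls were mostly shallow. With a log2 fold change of at least 1 in size required as well, 3 members were differentially expressed (4.41%, against 3.88% of all genes). Eif4ebp1 and Eif3c were lower (2.94%, against 1.28%), Eif3c only just past 1, and Eif1ad8 was higher (1.47%, against 2.61%). Eif1ad8 passed the filter through the 4H group alone, and without the Eif1ad copies 2 of 67 members (2.99%) were differentially expressed.

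The summed FPKM of all members was 15772, 15763 and 15892 in the CON libraries and 12585, 12699 and 12576 in the 4H libraries. This was 3.98% to 4.00% of all FPKM of a CON library and 3.25% to 3.28% of all FPKM of a 4H library. No 4H library reached the lowest CON library in this share. The sum is dominated by the elongation factors, which made up 2.07% ± 0.00651 of all FPKM in the CON group and 1.57% ± 0.0114 in the 4H group (mean ± SD, n = 3).

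The 4 main groups of factors had different medians. The median log2 fold change was -0.29 over the 7 elongation factors tested and -0.20 over the 14 eIF3 genes. It was -0.09 over the 8 tested genes of eIF2 and eIF2B and -0.05 over the 10 tested eIF4 factors. The median of eIF2 and eIF2B was -0.052 after rescaling to TPM. The median of the eIF4 factors was -0.0166 without CON replicate 2, -0.024 without 4H replicate 3, -0.0153 after rescaling to TPM and -0.0092 with quantile normalization. In the same order, 6 of 7, 9 of 14, 4 of 8 and 4 of 10 were called lower, against 24.1% of all genes tested. None of their members was called higher, against 22.6%, but calls higher were gained by Eif2b1 and Eif3b in 2 of 17 alternatives each, by Eif4g1 in 3, and by Eif4a1 and Eif5a under quantile normalization. The summed FPKM of the 4H group relative to CON was 0.739 for the elongation factors, 0.830 for eIF3, 0.841 for eIF2 and eIF2B, and 0.940 for the eIF4 factors. These are descriptions of the lists, and differences between the lists were not tested.

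**Figure D1:**
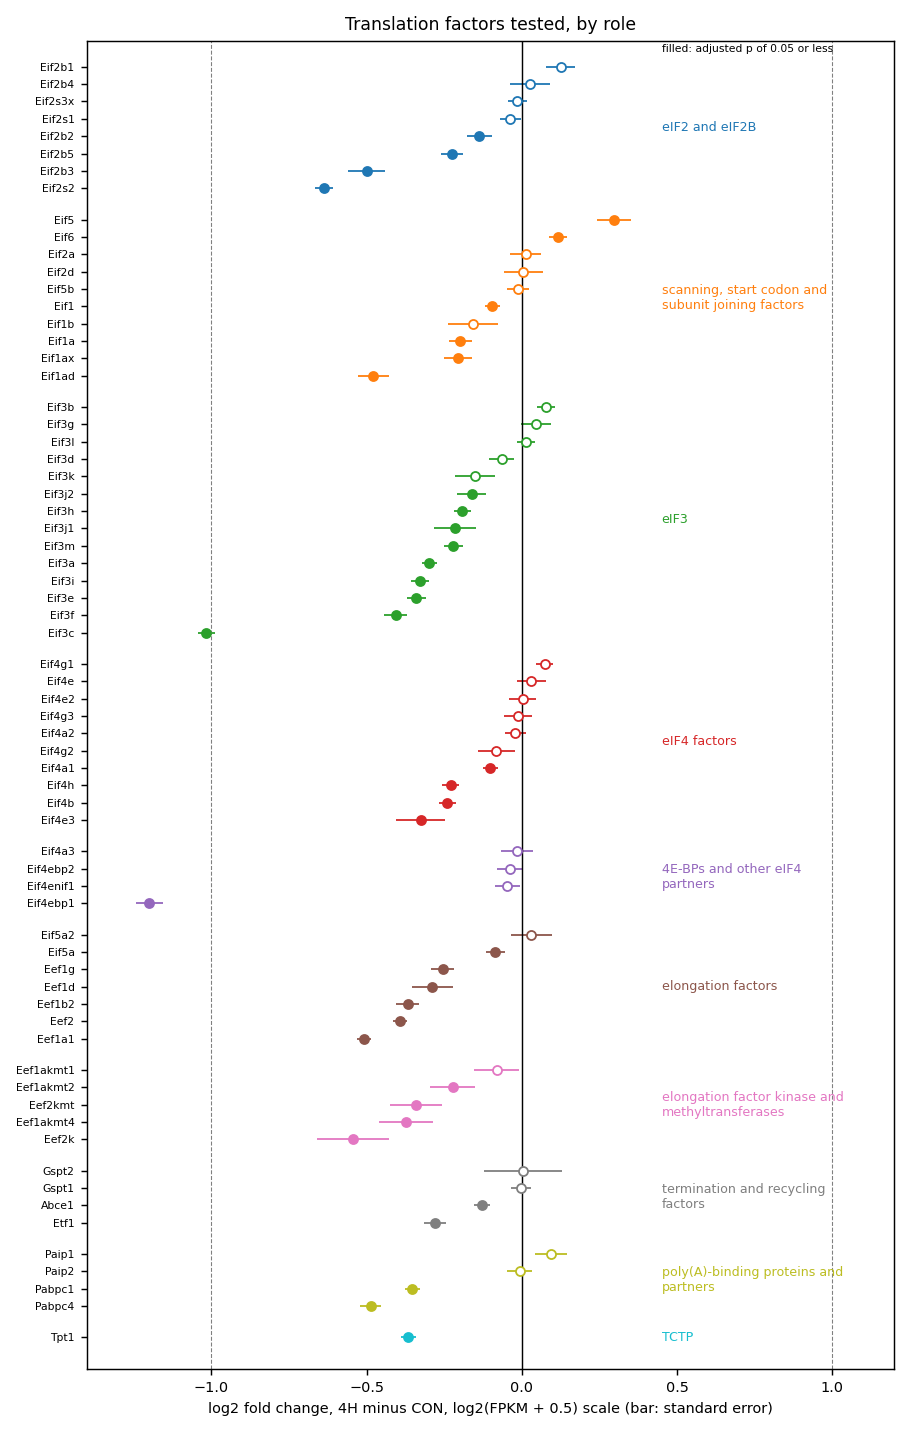
Log2 fold change of the members tested, 4H minus CON, on the log2(FPKM + 0.5) scale, grouped by role, with the standard error as a bar. Filled points have an adjusted p of at most 0.05, and dashed lines mark -1 and 1. Most filled points lie left of 0, with Eif4ebp1 at -1.20 and Eif3c at -1.02 farthest out, and Eif5 and Eif6 are the filled points to the right. Eif1ad8, tested but at 1.91, is left out.

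Among the mRNAs of the members, some begin with the run of pyrimidines known as a 5' terminal oligopyrimidine tract, a C followed by further C and T bases. In mouse GENCODE release 21, on the mm10 build that the submitters' processing notes list, at least 1 annotated transcript of 8 of the 68 tested members began with a C and at least 4 more pyrimidines. These starts are shown for 4 members to let the tract be read beside its gene's values, the first 25 transcribed bases with the tract in capitals.

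Pabpc1: CCCCTTCTCCCCggcggttagtgct

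Eef1b2: CTTTTTTTCCCTCagcgctggccgc

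Eif3f: CTCTTTCTCggcaagatggcttctc

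Eif2s3x: CTTTTCTCTCCgagcaagatggctg

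The tract was found in 11.8% of the tested members and in 4.69% of the 11375 tested genes with an annotated start. Pabpc1, Eef1b2, Eif3f, Eif3m and Eef1d were called lower, and Eif2s1, Eif2s3x and Eif4a2 were not called. The median log2 fold change was -0.25 over the 8 members with the tract and -0.13 over the other members tested. Over all genes it was -0.02 with the tract and -0.01 without it. No match says only that these letters are not at the annotated start, and Eef1a1 and Eef2, known for such tracts, had no match.

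Of the eIF2 subunits, the beta subunit alone was called. Eif2s2, which encodes it, lay at 170.9, 174.4 and 174.9 FPKM in the CON libraries and at 109.0, 114.6 and 110.3 FPKM in 4H. The 2 groups of libraries were far apart, a fall of 35.8% (log2 fold change -0.64 ± 0.03 SE, limma adjusted p = 1.42e-06). Eif2s1, the alpha subunit that the stress kinases phosphorylate, was 61.2 ± 1.88 FPKM in CON and 59.6 ± 0.586 FPKM in 4H and was not called (limma adjusted p = 0.394). Eif2s3x, the X-linked gamma subunit that binds GTP, was 117.1 ± 0.182 and 116.0 ± 3.15 FPKM and was not called either at a shared sequence of 35.7%. Shared sequence is the percentage of a gene's 75-base stretches that a transcript of some other gene also holds, so that reads from it may be miscounted. Eif2s2 was the highest of the 3 in the CON group, and in the 4H group its libraries overlapped those of Eif2s3x. Eif2s3y, the Y-linked copy, is listed at 0 in all libraries.

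Of the 5 subunits of eIF2B, 3 were called lower, against 24.1% of all genes tested. Eif2b3, the gamma subunit of the catalytic part, lay at 33.2, 30.9 and 35.1 FPKM in CON and at 24.3, 21.9 and 23.5 FPKM in 4H, with no overlap (log2 fold change -0.50 ± 0.06 SE, limma adjusted p = 0.000255). Eif2b5, the epsilon subunit that carries the exchange activity, fell from 47.8 ± 0.940 to 40.8 ± 1.15 FPKM (-0.23). Eif2b2 fell by 0.14 on the log2 scale, a call that was lost in 7 of 17 alternatives. Eif2b1, the alpha subunit through which phosphorylated eIF2 is sensed, was 25.2 ± 1.05 FPKM in CON and 27.5 ± 0.903 FPKM in 4H and missed the threshold (limma adjusted p = 0.0557). Eif2b4 differed by 0.03 on the log2 scale and was not called.

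The factors that find the start codon and join the subunits held Eif5 and Eif6, the only members called higher besides Eif1ad8. Eif5, the GTPase activator of eIF2, lay at 125.5, 132.3 and 130.4 FPKM in CON and at 159.2, 146.6 and 171.8 FPKM in 4H. Every 4H library was above every CON library (log2 fold change 0.30 ± 0.05 SE, limma adjusted p = 0.00275). Eif6, which keeps the large ribosomal subunit from joining too early, lay at 85.5, 85.0 and 83.2 FPKM in CON and at 92.8, 91.5 and 90.9 FPKM in 4H. Its libraries did not overlap either, and the rise was small (0.12 ± 0.03 SE, limma adjusted p = 0.00991).

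Eif1ad, an eIF1A-related protein of the nucleus, had the deepest fall of these 10 genes. It lay at 34.1, 31.1 and 33.0 FPKM in CON and at 22.8, 24.5 and 22.7 FPKM in 4H, without overlap (log2 fold change -0.48 ± 0.05 SE, limma adjusted p = 0.000123). Its exons overlap those of Banf1 on the other strand, and whether the counting used strand is not given in the sources used here. Eif1ax and Eif1a, which encode the scanning factor eIF1A, fell by 0.21 and 0.20 on the log2 scale. Eif1ax lay at 28.3, 26.7 and 27.7 FPKM in CON and at 22.9, 23.8 and 24.8 FPKM in 4H, and the libraries of the 2 groups stayed apart. Eif1, the most abundant of these genes and the guardian of start codon choice, lay at 400.0, 398.4 and 397.4 FPKM in CON and at 365.8, 380.5 and 373.5 FPKM in 4H. The groups did not overlap, but the fall was 0.09 on the log2 scale and its call was lost in 3 of 17 alternatives, and its shared sequence is 25.6%. Eif1b, Eif2a, Eif2d and the subunit joining GTPase Eif5b were not called.

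eIF3 is the largest initiation factor, and its subunits a, c, e, f, h, k, l and m form the core of the complex. Eif3c had the deepest fall of the group. It lay at 274.0, 274.4 and 274.1 FPKM in the CON libraries and at 136.0, 138.1 and 131.9 FPKM in 4H. The CON values were almost equal and the 4H level was 0.493 of them (log2 fold change -1.02 ± 0.03 SE, limma adjusted p = 1.02e-07). The log2 fold change of Eif3c was -0.98 after rescaling to TPM and with quantile normalization and -0.998 without 4H replicate 3, short of differential expression but still called. The gene lies at chr7:126546455-126566411 on the minus strand (mm10), and its shared sequence is 4.65%. It was the first of the 14 eIF3 genes by mean FPKM in CON and the seventh in 4H, where its libraries overlapped those of Eif3l, just above it, and not those of Eif3i, just below it.

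Of the 8 core subunits, 6 were called lower, against 24.1% of all genes tested. Eif3f, a subunit that is also studied in muscle wasting, lay at 50.6, 49.6 and 52.4 FPKM in CON and at 38.3, 37.4 and 39.1 FPKM in 4H. This fall was the next deepest and its libraries did not overlap (log2 fold change -0.41 ± 0.04 SE, limma adjusted p = 5.44e-05). Eif3e fell by 0.34, the scaffold subunit Eif3a by 0.30, Eif3m by 0.22 and Eif3h by 0.19 on the log2 scale. Eif3l, at 138.0 ± 2.38 FPKM in CON and 139.3 ± 2.21 FPKM in 4H, and Eif3k were not called.

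Of the other 6 eIF3 genes, 3 were called lower, against 24.1% of all genes tested. Eif3i, a subunit of WD40 repeats, fell by 0.33 on the log2 scale, from 150.0 ± 2.09 to 119.4 ± 2.43 FPKM. Eif3b and Eif3g, which join eIF3i in the module near the mRNA entry channel, were not called. Eif3b was 136.6 ± 2.59 FPKM in CON and 144.3 ± 2.59 FPKM in 4H, with all 4H libraries above all CON libraries (limma adjusted p = 0.0529). The cap-binding subunit Eif3d differed by -0.07 on the log2 scale and was not called. Eif3j1 and Eif3j2, near-identical copies of the loosely bound j subunit, fell by 0.22 and 0.16. Reads can be split between them, with a shared sequence of 37.7% and 87.4%, and each call was lost in 5 of 17 alternatives.

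**Figure D2:**
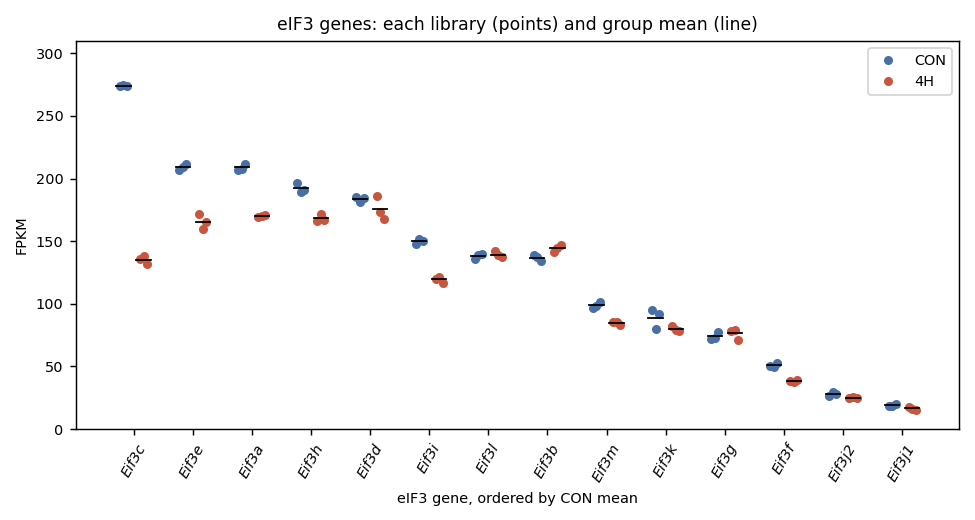
FPKM of the 14 eIF3 genes in each library (points, blue for CON and red for 4H) with the group mean as a line, ordered by the CON mean. Eif3c drops from 274.2 to 135.3 FPKM, while Eif3l, Eif3b and Eif3g have 4H means at or above their CON means.

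Without Eif3c, the summed FPKM of the eIF3 genes in 4H was still 0.889 of that in CON.

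The eIF4 factors had the median nearest 0 of the main groups. Eif4e, which binds the cap, was 44.9 ± 2.03 FPKM in CON and 45.9 ± 2.09 FPKM in 4H, and its libraries overlapped. Its relatives and the scaffolds Eif4g1, Eif4g2 and Eif4g3 were not called, except Eif4e3, a low-level cap-binding relative that lay at 7.43, 7.75 and 8.25 FPKM in CON and at 6.73, 6.01 and 5.68 FPKM in 4H. Eif4e3 fell by 0.33 ± 0.08 SE on the log2 scale (limma adjusted p = 0.0101). Eif4g1 had 204.8 ± 2.63 FPKM in 4H against 194.7 ± 4.26 FPKM in CON and missed the threshold (limma adjusted p = 0.0589).

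The other 3 eIF4 factors called lower were Eif4b, Eif4h and Eif4a1. Eif4b, which stimulates the helicase eIF4A, lay at 198.7, 201.4 and 195.7 FPKM in CON and at 164.9, 171.5 and 168.0 FPKM in 4H. The groups were apart (log2 fold change -0.24 ± 0.03 SE, limma adjusted p = 0.000202), and Eif4h, a related helper, fell by 0.23. Eif4a1, the main helicase gene and the most abundant of the group, lay at 531.4, 522.1 and 538.8 FPKM in CON and at 491.4, 495.3 and 496.7 FPKM in 4H. Its fall of 0.10 on the log2 scale reversed to a rise of 0.07 under quantile normalization, so its direction depends on the scaling, and its shared sequence is 27.7%. Eif4a2, its paralog, was not called, and the ratio of Eif4a2 to Eif4a1 was 0.278 ± 0.0114 in CON and 0.294 ± 0.00943 in 4H (two-sided exact permutation test, p = 0.3). With 3 libraries against 3, this test cannot go below 0.1.

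Eif4ebp1 had the deepest fall of all members. It encodes 4E-BP1, which binds eIF4E and blocks cap-dependent initiation until mTOR phosphorylates it. Its level was 70.5, 70.5 and 71.2 FPKM in the CON libraries and 30.0, 32.4 and 29.2 FPKM in the 4H libraries. The groups were far apart, a fall of 56.8% (log2 fold change -1.20 ± 0.04 SE, limma adjusted p = 4.03e-07). The gene lies at chr8:27260329-27276674 on the plus strand (mm10), and its shared sequence is 0.364%.

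The mRNA of the inhibitor was set against that of its target, Eif4e. The ratio of Eif4ebp1 to Eif4e was 1.54, 1.52 and 1.67 in CON and 0.621, 0.727 and 0.651 in 4H (two-sided exact permutation test, p = 0.1, the smallest it allows). Every CON library held more Eif4ebp1 than Eif4e per length, and every 4H library less. Eif4ebp2, the closest relative, was 20.4 ± 0.321 FPKM in CON and 19.9 ± 0.443 FPKM in 4H and was not called (limma adjusted p = 0.478). Eif4ebp3 was under the filter, at 0.471 ± 0.188 and 0.349 ± 0.0968 FPKM. Eif4enif1, the shuttling partner of eIF4E, was not called. Nor was Eif4a3, a helicase of the exon junction complex and the most abundant of these 7 genes, at 80.8, 79.1 and 90.1 FPKM in CON and at 84.1, 83.0 and 79.9 FPKM in 4H. Its copies Eif4a3l1 and Eif4a3l2 stayed under the filter and were not tested. Their means were 0 and 0.0546 FPKM in CON and 0.139 and 0.169 FPKM in 4H, with all 4H libraries above all CON libraries. Of the 4983 genes above 0 in some library but under a mean of 0.5 FPKM, 16.9% lay that way.

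**Figure D3:**
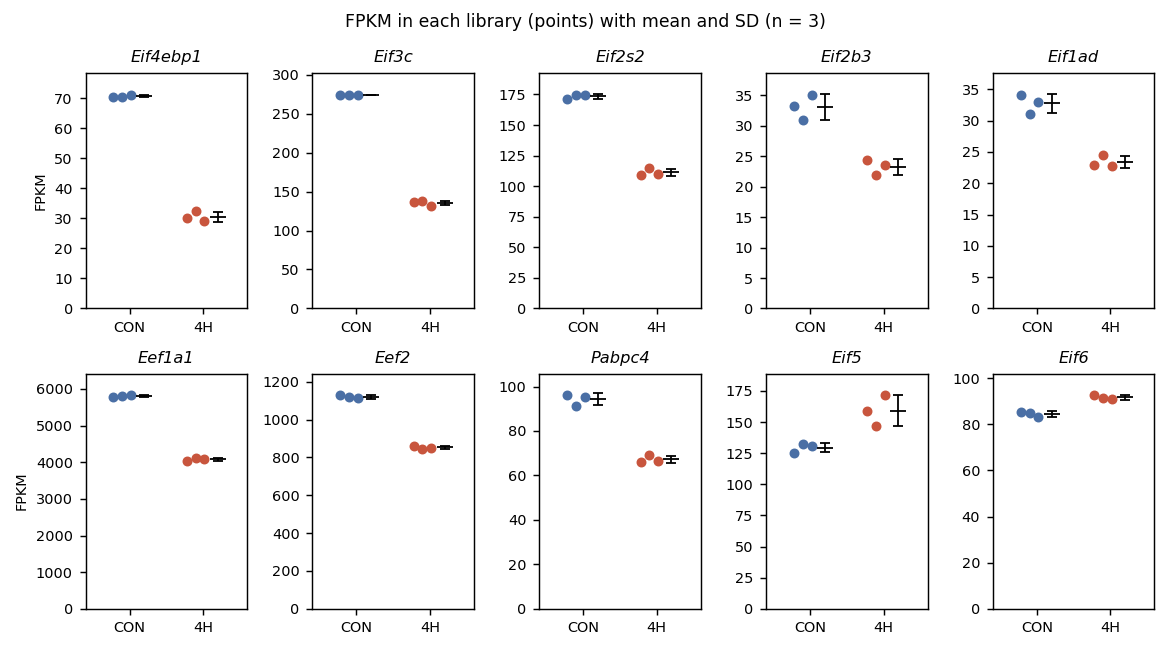
FPKM of 10 members in each library (points, blue for CON and red for 4H) with the mean and SD (n = 3) to the right of each group, on axes that begin at 0. In the top panels and in Eef1a1, Eef2 and Pabpc4 the 4H libraries lie below the CON libraries, and in Eif5 and Eif6 they lie above.

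The elongation factors held the most abundant member, Eef1a1, while Tpt1, listed apart, lay above Eef2 in both groups. Eef1a1, which carries aminoacyl-tRNA to the ribosome, lay at 5778, 5799 and 5838 FPKM in CON and at 4039, 4113 and 4084 FPKM in 4H. The spread within each group was small beside the fall of 29.7% (log2 fold change -0.51 ± 0.02 SE, limma adjusted p = 1.03e-06), with a shared sequence of 41.7%. Eef2, the translocase, lay at 1131, 1117 and 1113 FPKM in CON and at 860.1, 847.0 and 851.2 FPKM in 4H. Its libraries did not overlap (log2 fold change -0.39 ± 0.02 SE, limma adjusted p = 3.73e-06). The muscle and neuron isoform Eef1a2 is listed at 0 in all libraries.

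The exchange factor that recharges eEF1A fell in its 3 subunits. Eef1b2 fell by 0.37, Eef1d by 0.29 and Eef1g by 0.26 on the log2 scale. Eef1d shares exon sequence with Naprt on the same strand, and Eef1g has a shared sequence of 56.5%. Without Eef1a1, the summed FPKM of the elongation factors in 4H was 0.827 of that in CON.

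Eif5a, which helps the ribosome through stretches such as polyproline and carries the amino acid hypusine, was 702.3 ± 16.8 FPKM in CON and 662.0 ± 17.3 FPKM in 4H. Its fall of 0.09 on the log2 scale was called at a limma adjusted p of 0.0453, was lost in 10 of 17 alternatives and became a rise of 0.11 under quantile normalization. The second gene Eif5a2 was 5.63 ± 0.211 and 5.76 ± 0.171 FPKM and was not called. The ratio of Eif5a2 to Eif5a was 0.00802 in CON and 0.00870 in 4H (two-sided exact permutation test, p = 0.1).

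Of the 6 genes of enzymes that modify the elongation factors, 5 were tested and 4 were called lower, against 24.1% of all genes tested. Eef2k, the kinase that inhibits eEF2, lay at 10.7, 11.4 and 11.2 FPKM in CON and at 6.87, 6.50 and 9.17 FPKM in 4H. The 4H libraries were more scattered but all lay below CON (log2 fold change -0.54 ± 0.12 SE, limma adjusted p = 0.00542). Of the methyltransferases, Eef1akmt4 lay at 10.9, 9.73 and 9.39 FPKM in CON and at 8.48, 6.90 and 7.47 FPKM in 4H. Its libraries did not overlap (log2 fold change -0.37), and its shared sequence of 30.5% includes the readthrough transcript Eef1ece2, which is listed at 0. Eef2kmt fell by 0.34. Eef1akmt2 fell by 0.22, a call lost in 6 of 17 alternatives. Eef1akmt1, the most abundant of these genes, lay at 17.9, 17.2 and 17.5 FPKM in CON and at 15.5, 15.7 and 18.6 FPKM in 4H, overlapped and was not called. Eef1akmt3 was under the filter.

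In termination and recycling, Etf1, the release factor that reads stop codons, lay at 136.6, 137.5 and 143.6 FPKM in CON and at 118.9, 112.7 and 112.1 FPKM in 4H. The groups were apart (log2 fold change -0.28 ± 0.03 SE, limma adjusted p = 0.000325). Abce1, which splits the ribosome for reuse, lay at 219.8, 219.6 and 223.2 FPKM in CON and at 200.8, 204.9 and 200.3 FPKM in 4H. This was a shallower fall without overlap (-0.13 ± 0.02 SE, limma adjusted p = 0.0033), and with quantile normalization the log2 fold change of Abce1 was -0.0701 and still called. Gspt1, the GTPase partner of Etf1, was 101.5 ± 2.63 and 101.3 ± 1.73 FPKM, and neither it nor Gspt2 was called.

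The poly(A)-binding proteins, which close the mRNA loop with eIF4G, fell while their partners were not called. Pabpc1 lay at 668.8, 649.7 and 641.1 FPKM in CON and at 511.0, 514.9 and 508.4 FPKM in 4H (log2 fold change -0.35 ± 0.03 SE, limma adjusted p = 1.4e-05). Pabpc4 lay at 96.2, 91.4 and 95.4 FPKM in CON and at 66.2, 69.0 and 66.3 FPKM in 4H (-0.49 ± 0.03 SE, limma adjusted p = 1.21e-05). With quantile normalization the log2 fold change of Pabpc1 was -0.20 and still called. Neither gene had overlapping libraries, and Pabpc4 has a shared sequence of 57.5%. Paip1, which stimulates translation with Pabpc1, and Paip2, which inhibits it, differed by 0.09 and -0.01 on the log2 scale.

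Tpt1, the translationally controlled tumour protein, lay at 1272, 1282 and 1287 FPKM in CON and at 968.3, 1005 and 1010 FPKM in 4H. All 4H libraries were lower (log2 fold change -0.37 ± 0.03 SE, limma adjusted p = 1.16e-05). Its shared sequence is 40.6%. Among the 58 tested members with a shared sequence under 25%, 28 were called lower, against 24.1% of all genes, and 3 higher, against 22.6%, among them Eif1ad8, which passed the filter through the 4H group alone.

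The 16 Eif1ad copies had higher values in the 4H group. They lie within chr12:87494721-88324026 (mm10), a span of 829 kb, and are distinct from Eif1ad itself. Clusters of such eIF1A-like copies are known from the 2-cell mouse embryo. All 16 have a coding sequence of 432 bases, the length of that of Eif1ax, with 83.6% to 85.2% of its bases identical to Eif1ax. Pairs of copies shared 95.6% to 100% of their bases, with a median of 97.2%. The first 60 coding bases of Eif1ax and of 3 copies are shown, from GENCODE release 21, to let the near identity be seen, with capitals where a copy differs from Eif1ax.

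Eif1ax: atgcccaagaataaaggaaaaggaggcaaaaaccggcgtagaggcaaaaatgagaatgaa

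Eif1ad8: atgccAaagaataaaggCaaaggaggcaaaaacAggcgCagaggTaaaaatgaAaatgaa

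Eif1ad11: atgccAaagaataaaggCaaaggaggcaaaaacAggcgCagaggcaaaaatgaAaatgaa

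Eif1ad19: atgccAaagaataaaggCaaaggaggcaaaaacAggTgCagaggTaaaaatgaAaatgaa

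The copies were near or at 0 in the CON group. Their summed FPKM was 0.254, 0.393 and 0.421 in the CON libraries and 6.33, 7.29 and 10.8 in the 4H libraries. In 14 of the 16 copies every 4H library was above every CON library, and 7 copies are listed at 0 in all CON libraries. Of the 4983 genes above 0 in some library but under a mean of 0.5 FPKM, as 15 of the copies were, 16.9% had all 4H libraries above all CON libraries. Eif1ad8 was listed at 0, 0 and 0.0295 FPKM in CON and at 1.41, 1.48 and 1.36 FPKM in 4H. It was the only copy to pass the filter, and it passed through the 4H group alone, so that its call (limma log2 fold change 1.91, adjusted p = 1.2e-05) adds no support. Its log2 fold change ranged from 1.26 to 3.80 over the 15 alternatives in which it was tested. The other 15 copies were not tested. With no filter, 14 of the 16 were called higher by limma, against 17.9% of the 16576 genes then tested. That fit took in any gene above 0 in some library. The 7 copies at 0 in all CON libraries thus entered it through the 4H group alone, and these calls add no support. In 11 of the copies the shared sequence is over 50% (median 66.3% over the 16), so that reads can be shared among them and single copies are uncertain. Counts of copies are therefore not counts of separate results.

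**Figure D4:**
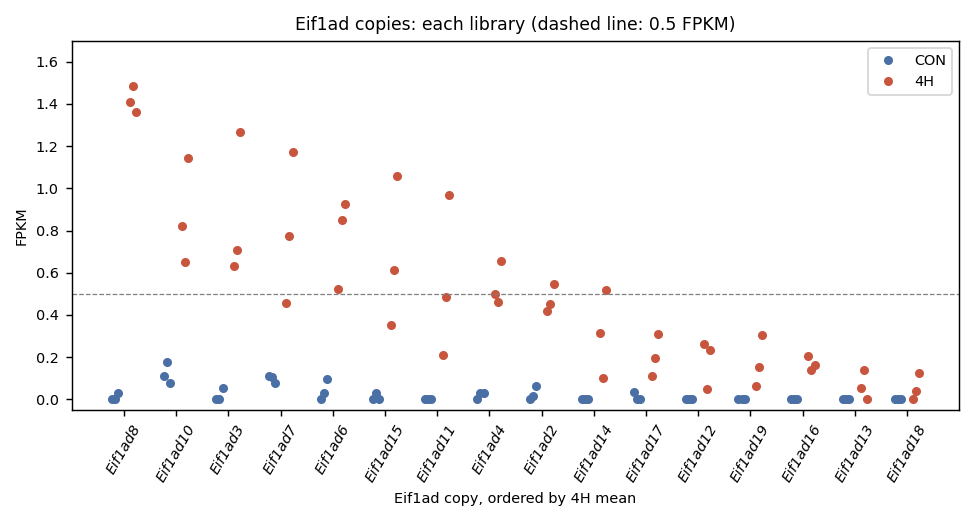
FPKM of the 16 Eif1ad copies in each library (points, blue for CON and red for 4H), ordered by the 4H mean, with the filter of 0.5 FPKM as a dashed line. CON libraries stay at or below 0.178 FPKM, and Eif1ad8 reaches 1.36 to 1.48 FPKM in 4H.

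The other 8 members that were not tested comprised 4 listed at 0 in all libraries (Eif2s3y, Eif4e1b, Eef1a2 and Eef1ece2) and 4 under the filter (Eif4ebp3, Eif4a3l1, Eif4a3l2 and Eef1akmt3). Eif4e1b is the cap-binding isoform of the oocyte.

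Promoters from RefSeq (mouse GRCm38.p6), 250 bases before to 50 bases after the start, were found by symbol for 53 of the 91 members. Members were matched whether tested or not, while the shares of genes beside them are over tested genes only. The E-box CACGTG, which MYC-family factors bind, was in at least 1 window of 13 of them (24.5%), against 11.9% of 8952 tested genes with a window. The motif TGATGNAA, known from stress-response promoters, was in 2 of them, Eef2k and Eif2s3x (3.77%, against 2.63%). Both strands were searched, each motif was counted on its own, and a match is a description of the sequence only.

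Genes that act on these factors were read from lists of related genes. Each count below is to be read against the 22.6% higher and 24.1% lower of all genes tested. Of 9 eIF2 kinases, phosphatase subunits and their partners, 5 were called lower and none higher. Ppp1r15a (GADD34), the inducible subunit that removes the phosphate from eIF2, lay at 47.2, 41.8 and 47.5 FPKM in CON and at 20.9, 20.3 and 19.3 FPKM in 4H. The libraries were far apart (log2 fold change -1.15 ± 0.06 SE, limma adjusted p = 2.24e-06). The kinase Eif2ak2 (PKR) was among the falls (-0.26), and Eif2ak1, Eif2ak3 and Eif2ak4 were not called.

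Of 11 genes of the list of eIF4 kinases, S6 kinases and eIF4A inhibitor, Rptor, the scaffold of mTOR complex 1, rose by 0.24 and 3 fell, the deepest being the eIF4E kinase Mknk1 at -0.41. Larp1, which binds mRNAs with a pyrimidine start, fell by 0.35. Of 9 modifiers of eIF5A and eEF2, 2 fell, the deeper being Dph6 at -0.24, and none rose. Of 12 ribosome rescue and reinitiation factors, 3 rose and 5 fell. Denr, a reinitiation factor, rose from 45.1 ± 0.817 to 65.5 ± 1.77 FPKM (0.53).

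Gtpbp2, a GTPase of ribosome rescue, lay at 37.7, 34.9 and 37.6 FPKM in CON and at 13.4, 15.3 and 14.6 FPKM in 4H. Its log2 fold change lay below that of every member, without overlap of libraries (log2 fold change -1.32 ± 0.06 SE, limma adjusted p = 1.11e-06). Of 11 tested mitochondrial translation factors, 4 fell, by up to 0.34 for Guf1, and none rose.

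Markers bear on what the libraries held. The myoblast markers Myod1, Myf5, Des, Cdh15, Chrna1 and Vim were present in all libraries, and the sum of the 7 markers was 1942 to 2015 FPKM in CON and 2915 to 3144 FPKM in 4H. Most of this was Vim, which is not specific to myoblasts, and without it the sum was 120.8 to 121.8 FPKM in CON and 160.2 to 168.4 FPKM in 4H. Myod1 (5.13 to 18.2 FPKM), Des, Cdh15, Chrna1 and Vim rose and Myf5 fell from 15.8 to 9.82 FPKM (limma calls). Pax7 stayed under 1 FPKM, and 5 of 6 markers of differentiated muscle were under 1 FPKM in all libraries. The summed level of these 6 was 0.729 to 1.11 FPKM in CON and 1.25 to 1.81 FPKM in 4H. Mymk rose from 0.525 to 1.01 FPKM (limma call), Mymx was at 0 in all libraries, and Myog, not tested, was 0.217 FPKM in CON and 0.0265 FPKM in 4H. Of 10 markers of other cell types, 8 were under 1 FPKM in all libraries, and among these Ptprc, Epcam and Alb were at 0. The summed level of these 10 was 10.4 to 12.3 FPKM in CON and 24.0 to 27.0 FPKM in 4H, through Cd68 and Hba-a1. Cd68 rose from 7.57 to 16.4 FPKM and Hba-a1 from 2.75 to 8.50 FPKM, and both were differentially expressed. The part of any of these lists in the results for the translation factors was not tested. Pearson correlations of log2 values between libraries were 0.992 to 0.993 within a group and 0.967 to 0.970 between groups, and no library stood apart from its group. Depth is unknown, since FPKM does not keep it.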

How the data were processed

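The authors deposited 1 table of FPKM values with a column for each of the 6 libraries, and every column was used. Per the labels the libraries were poly(A)-selected and strand-specific, and the processing notes list the mm10 build. For the aligner, the counter and the annotation, nothing is given in the sources used here. As the values are FPKM and not counts, limma 3.58.1 in R 4.3.3 replaced the count model of the study (lmFit, eBayes with a trend, two-sided) on log2(FPKM + 0.5). That scale understates the change of low genes. Genes averaging 0.5 FPKM or more were tested, with Benjamini-Hochberg adjustment over all of them, and differential expression also needed a log2 fold change of 1 or more in size. No block was used. The step was tested on simulated data.

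The members, gene lists and tests were chosen with earlier results of these data known. Values in every library are given for differentially expressed members, for the 2 largest called rises and 2 largest called falls of each list that averaged 5 FPKM or more without overlap, and for the most abundant member of each list. For related lists, the largest called rise and fall and any differentially expressed gene are named. Eif2ak1, Eif2ak2, Eif2ak3, Eif2ak4, Larp1 and the Eif1ad copies were named after their values were seen. Gene positions, shared 75-base stretches, transcript starts and coding bases came from GENCODE release 21, in which all 91 members were found by their Ensembl identifiers. 

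The alternatives were pseudocounts of 0.1 and 1, no filter, filters at 1 and 5 FPKM, array weights in limma, limma with no trend, a replicate block, scaling by quantile normalization, by median of ratios or to TPM, and leaving out each library. FPKM holds no depth, so no counting error is given. Summaries used SciPy 1.17.1, numpy 2.4.6 and pandas 2.3.3 under Python 3.11.15, and matplotlib 3.10.9 drew the plots.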

Additional observations from a re-analysis of the deposited data

How the results depend on the processing

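Of the 40 members called, 32 were tested and called in the same direction under all 17 alternatives, and 19 of the 28 not called were tested and stayed so. Eif1ad8 could not be tested with the filters at 1 and 5 FPKM, nor Gspt2 with that at 5 FPKM, and both kept their side elsewhere. The 7 calls lost were Eef1akmt2, Eif1, Eif2b2, Eif3j1, Eif3j2, Eif4a1 and Eif5a. Calls were gained by Eif2b1, Eif3b, Eif4g1 and Paip1, all higher, and by Eef1akmt1, Eif1b, Eif3d and Eif3k, all lower. Under quantile normalization Eif4a1 was higher by 0.0708 (limma adjusted p = 0.0227) and Eif5a by 0.11 (limma adjusted p = 0.0168). The cause was not tested. The log2 fold change of Eif3c ranged from -1.03 to -0.98, so its place past 1 depends on the setting, and that of Eif4ebp1 from -1.24 to -1.17. Members called higher numbered 3 of 68 tested as reported, 18 of 87 with no filter and 14 of 77 after rescaling to TPM. With quantile normalization they numbered 6 of 68. Among all genes, 2967 of 16576 were called higher with no filter and 3140 of 12457 after rescaling to TPM. The number of members called higher was 3 to 8 when 1 library was left out. Without CON replicates 1, 2 and 3 it was 8, 6 and 7 of 71. Without the Eif1ad copies, it was 2 as reported, 4 with no filter, 5 after rescaling to TPM, 5 with quantile normalization, and 2 to 4 with 1 library left out, 4 of them without CON replicate 1. Leaving out a CON library raises the mean of the copies and so lets more of them pass the filter. Members called lower numbered 32 to 36 with 1 library left out and 31 of 77 tested after rescaling to TPM, against 37 of 68. The median log2 fold changes after rescaling to TPM were -0.052 (eIF2 and eIF2B), -0.17 (eIF3), -0.0153 (eIF4 factors) and -0.25 (elongation factors), and with quantile normalization -0.0613, -0.18, -0.0092 and -0.25. With 1 library left out they ranged from -0.10 to -0.07, from -0.23 to -0.18, from -0.0751 to -0.0166 and from -0.36 to -0.23. With 1 library left out of a group of 3, the ratio of Eif4ebp1 to Eif4e stayed 0.864 to 0.941 lower in 4H. With the replicate block, 3 members were called higher and 35 lower, and 4964 genes in all against 5409. Deviations of libraries with the same biosample number correlated at 0.02, -0.09 and -0.13, and those of the libraries whose titles share a number, 4H1 with C1 and 4H3 with C3, at 0.02 and 0.18. Among all pairs of a CON and a 4H library these correlations ran from -0.13 to 0.18, the highest for 4H3 with C3. They do not settle whether libraries were paired, and the fit as reported used no block. FPKM keeps no depth, which limits what can be said of members near 0.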

Other observations

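Other families known from the 2-cell embryo were looked up beside the Eif1ad copies, and they were chosen after the values of the copies were seen. The summed FPKM of 8 Zscan4 genes was 0.119, 0.0141 and 0.123 in the CON libraries and 1.48, 3.71 and 2.93 in the 4H libraries, and in 7 of them every 4H library was above every CON library. The summed FPKM of 9 Tdpoz genes was 0.0211, 0 and 0 in the CON libraries and 0.877, 0.750 and 1.12 in the 4H libraries, and 5 of them had no overlap between the groups. None of these 17 genes had a mean of 0.5 FPKM, so none was tested. Of the 4983 genes above 0 in some library but under that mean, 16.9% had all 4H libraries above all CON libraries.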
